A study of Mus musculus with 20 samples.

Results

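The 41 genes described here drive or mark cell division. They were chosen by name from the textbook machinery of the cell cycle and of DNA replication, with earlier results of these data known, and all 41 were found among the 52783 mouse genes of the count table. They were measured in 20 RNA sequencing libraries from 10 female BALB/cJ mice, each of which had received 1000000 cells of a mouse mammary tumour line in the mammary fat pad. 5 mice carried 66cl4 tumours, which metastasise, and 5 carried 67NR tumours, which do not. Both lines belong to the 4T1 family and neither was treated. Each tumour was dissociated and sorted by flow cytometry on CD45, the surface protein of leukocytes encoded by Ptprc, and a CD45+ and a CD45- library were made, which gave 4 groups of 5 animals. The CD45- gate holds the tumour cells together with fibroblasts, endothelial cells and any other cell without CD45, and each tumour type stands for 1 cell line. The 66cl4 mice were numbered 3, 4, 5, 6 and 7 and the 67NR mice 1, 4, 5, 6 and 7, and every list of 5 values follows these orders. Libraries of the same tumour and number were taken to come from one animal, since their titles share the number.

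Total estimated counts were 12960000 to 28080314 per library, and the lowest count of any of the 41 genes in any library was 37. Ptprc was higher in the CD45+ library of all 10 animals, by 33.6- to 1932-fold. In the labels of 66cl4 animals 5 and 6, title and cell type disagree on the gate, and the title was followed here. Ptprc followed the titles in both animals. It was at 17697 and 20442 normalised counts in their CD45+ libraries and at 138 and 40.4 in their CD45- libraries. Genes that pass with these animals and not without them are given both ways, and the fits without them have fewer libraries. Summed leukocyte markers (6 genes) ranged, in normalised counts, over 285 to 1568 for the 66cl4 CD45- libraries and 1329 to 2675 for those of 67NR, against 99582 to 163787 and 83673 to 133952 in the CD45+ libraries. A normalised count is an estimated count divided by the size factor of its library.

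A cell that divides passes through G1, copies its DNA in S phase, and separates the copies in mitosis (M) after a second gap, G2. D cyclins carry growth signals to the kinases that inactivate the retinoblastoma protein, which frees E2F factors to switch on the genes of DNA replication, among them the Mcm helicase, Pcna and the enzymes that make nucleotides. Genes of G2 and M, such as Ccnb1, Plk1 and Aurkb, are switched on later by Foxm1, B-Myb and the MuvB complex, and resting or finally differentiated cells keep most of these genes low. The 41 genes are treated in 5 role sets that follow this order.

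The promoters of a few members that the results turn on are printed here, since both layers of control act through them. Sequences were taken from RefSeq (GRCm38.p6), which gave 34 promoters of 300 bases for 32 of the 41 genes. Foxm1, Mcm4, Tpx2, Aurkb, Ccnd2, Ccne2, Kif20a, Ccnd1 and Ccna2 had no entry. 3 motifs were searched on both strands, namely the CCAAT box, the cell cycle homology region through which MuvB binds late cell cycle genes, and the E2F site. The CCAAT box was searched as these letters. The homology region was counted where the letters TTTGAA stood, or else the variant spelled as TTCGAA. The E2F site was counted where the letters TTCCCGC stood, or else the variant spelled as TTGGCGC. Of the member promoters 79.4% held a CCAAT box, against 37.4% of all 32851 mouse promoters of this length. The cell cycle homology region stood in 50% of the member promoters against 19.2% of all, and the E2F site in 26.5% against 6.81%. The late motif was found in 7 of 8 promoters of the mitotic kinase set and in 6 of 8 of the spindle set, but in 2 of 11 of the replication set. The E2F site was found in 6 of 11 replication promoters and in 0 of 8 of the mitotic kinase set. Shown are the 200 bases before the start of 7 genes, 5′ to 3′ on the strand of the gene, with the motifs in capitals. They comprise 2 helicase genes, 2 late genes, and the 3 genes that carry the largest difference between the tumours in CD45- cells among those with an entry.
Mcm3 (chr1:20820313-20820512, minus strand): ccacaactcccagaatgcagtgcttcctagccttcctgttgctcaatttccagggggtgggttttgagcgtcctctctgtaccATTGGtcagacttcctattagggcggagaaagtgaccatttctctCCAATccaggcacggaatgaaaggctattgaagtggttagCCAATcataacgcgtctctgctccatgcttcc
Mcm5 (chr8:75109309-75109508, plus strand): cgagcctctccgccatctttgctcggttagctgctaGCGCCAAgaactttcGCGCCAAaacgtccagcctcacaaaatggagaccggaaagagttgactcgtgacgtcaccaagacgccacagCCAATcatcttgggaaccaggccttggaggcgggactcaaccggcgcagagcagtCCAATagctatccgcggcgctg
Mki67 (chr7:135716380-135716579, minus strand): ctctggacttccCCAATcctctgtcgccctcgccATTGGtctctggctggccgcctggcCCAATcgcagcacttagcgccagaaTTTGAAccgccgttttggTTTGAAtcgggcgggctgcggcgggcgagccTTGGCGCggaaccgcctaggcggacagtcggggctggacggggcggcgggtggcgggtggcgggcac
Ccnb2 (chr9:70421555-70421754, minus strand): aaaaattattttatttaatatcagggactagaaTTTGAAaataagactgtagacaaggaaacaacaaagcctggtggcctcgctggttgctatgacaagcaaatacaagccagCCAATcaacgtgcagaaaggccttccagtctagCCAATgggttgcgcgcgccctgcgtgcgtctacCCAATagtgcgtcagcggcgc
Kif11 (chr19:37376182-37376381, plus strand): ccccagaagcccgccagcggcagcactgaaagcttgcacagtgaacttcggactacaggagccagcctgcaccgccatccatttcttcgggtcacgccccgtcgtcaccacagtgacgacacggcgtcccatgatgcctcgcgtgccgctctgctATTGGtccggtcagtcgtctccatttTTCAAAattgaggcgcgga
Tk1 (chr11:117826015-117826214, minus strand): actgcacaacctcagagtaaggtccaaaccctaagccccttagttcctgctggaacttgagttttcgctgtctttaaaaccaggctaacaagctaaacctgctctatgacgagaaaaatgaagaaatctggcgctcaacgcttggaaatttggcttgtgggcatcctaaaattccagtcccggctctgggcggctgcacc
Birc5 (chr11:117849037-117849236, plus strand): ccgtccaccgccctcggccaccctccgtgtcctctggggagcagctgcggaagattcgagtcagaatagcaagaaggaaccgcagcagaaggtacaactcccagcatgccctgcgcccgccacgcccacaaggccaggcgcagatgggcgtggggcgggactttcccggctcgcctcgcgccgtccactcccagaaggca
Mki67 and Ccnb2 each held 3 CCAAT boxes in this stretch, with 2 and 1 late motifs, and Mki67 had 1 E2F site as well. Mcm5 held 2 E2F sites and 2 CCAAT boxes and Mcm3 held 3 CCAAT boxes. The 3 E2F sites of Mcm3, of which 2 were overlapping readings of opposite strands, lay after the start, outside the stretch shown. So did a further CCAAT box of Mcm5 and a further late motif of Ccnb2. Kif11 had 1 CCAAT box and 1 late motif close to its start. Tk1 and Birc5 had none of these letters in the stretch shown. Where an E2F site and a CCAAT box shared letters, both were counted.

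In normalised counts, the summed level of the 41 genes was highest in 66cl4 CD45- cells and lowest in 66cl4 CD45+ cells, while the 67NR gates lay between and close together. It was 45713, 51940.4, 56947, 57038 and 66534 normalised counts in the 66cl4 CD45- libraries (55634 ± 7658, SD, n = 5) and 49957, 53023, 50767, 40611 and 48677 in the 67NR CD45- libraries (48607 ± 4742). In CD45+ cells it was 30366, 34589.6, 35236, 44344 and 42496 in 66cl4 tumours (37406 ± 5836) and 39206, 40071, 52498, 50872 and 56406 in 67NR tumours (47811 ± 7732). The 66cl4 gates did not overlap, and the CD45+ library was the lower one in 5 of 5 animals, at 0.619 to 0.777 of the CD45- library. In 67NR tumours it was the lower one in animals 1 and 4 only, and the ratio ran from 0.756 to 1.25. In TPM, which gives short transcripts more weight, the order differed, with 1964 ± 421 in 67NR CD45+, 1959 ± 294 in 66cl4 CD45-, 1779 ± 163 in 67NR CD45- and 1584 ± 180.3 in 66cl4 CD45+ cells. The lowest group was the same on both scales. Ccnd1 weighed heavily in the sum of normalised counts. The 6 genes of G1 were, in CD45- cells, mostly Ccnd1. Their mean sum was 14901 (66cl4) and 11316 (67NR) in CD45- cells and 5913 and 7478 in CD45+ cells. Of the role sets, G1 alone did not overlap between the 66cl4 gates. The replication set was highest in 67NR CD45+ cells (19023 against 17110.3 in 66cl4 CD45- cells). The 41 genes together took 0.159 to 0.388% of all counts of a library. In a bulk library, fewer dividing cells and less RNA of these genes per dividing cell cannot be told apart.

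**Figure D1:**
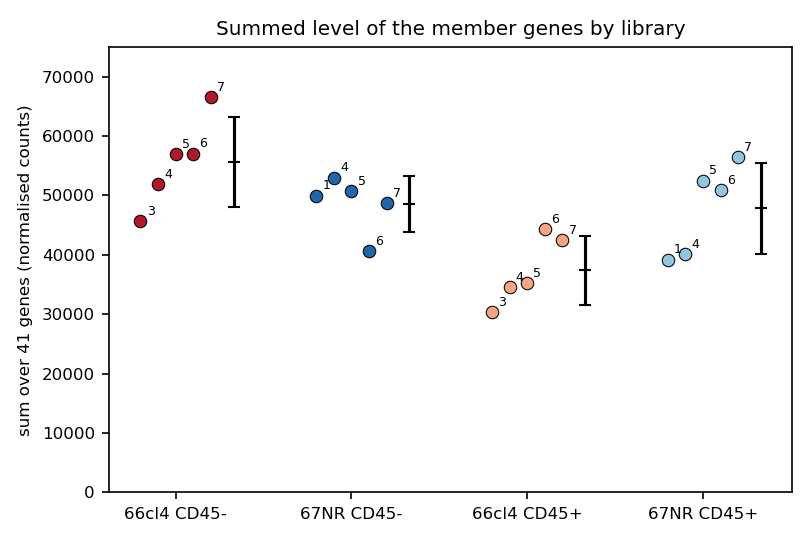
Sum of the normalised counts of the 41 genes (vertical axis, normalised counts) in each library, by tumour and CD45 gate; numbers beside points are animals, and the bar to the right of each group is its mean with SD (n = 5). The 66cl4 CD45+ libraries lie below all 66cl4 CD45- libraries, and the 67NR gates overlap. Ccnd1 makes up a large part of the sum in CD45- cells.

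Libraries differed as a whole, and the genes moved together within a group. The 66cl4 CD45- library of animal 7 was the highest of its group for 34 of the 41 genes and that of animal 3 the lowest for 31. In the 66cl4 CD45+ group the same 2 animals were highest for 24 and lowest for 28 genes. In 67NR tumours the CD45- library of animal 4 was highest for 20 genes and that of animal 6 lowest for 25, and the CD45+ libraries of animals 7 and 1 were highest for 27 and lowest for 26. The coefficient of variation of a member over 5 animals had a median of 15.1% (67NR CD45-) to 24.9% (67NR CD45+). It was smallest for Ccnd1 in 66cl4 CD45- cells, at 3.2%, and largest for Ccne2 in 66cl4 CD45+ cells, at 64.3%.

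**Figure D2:**
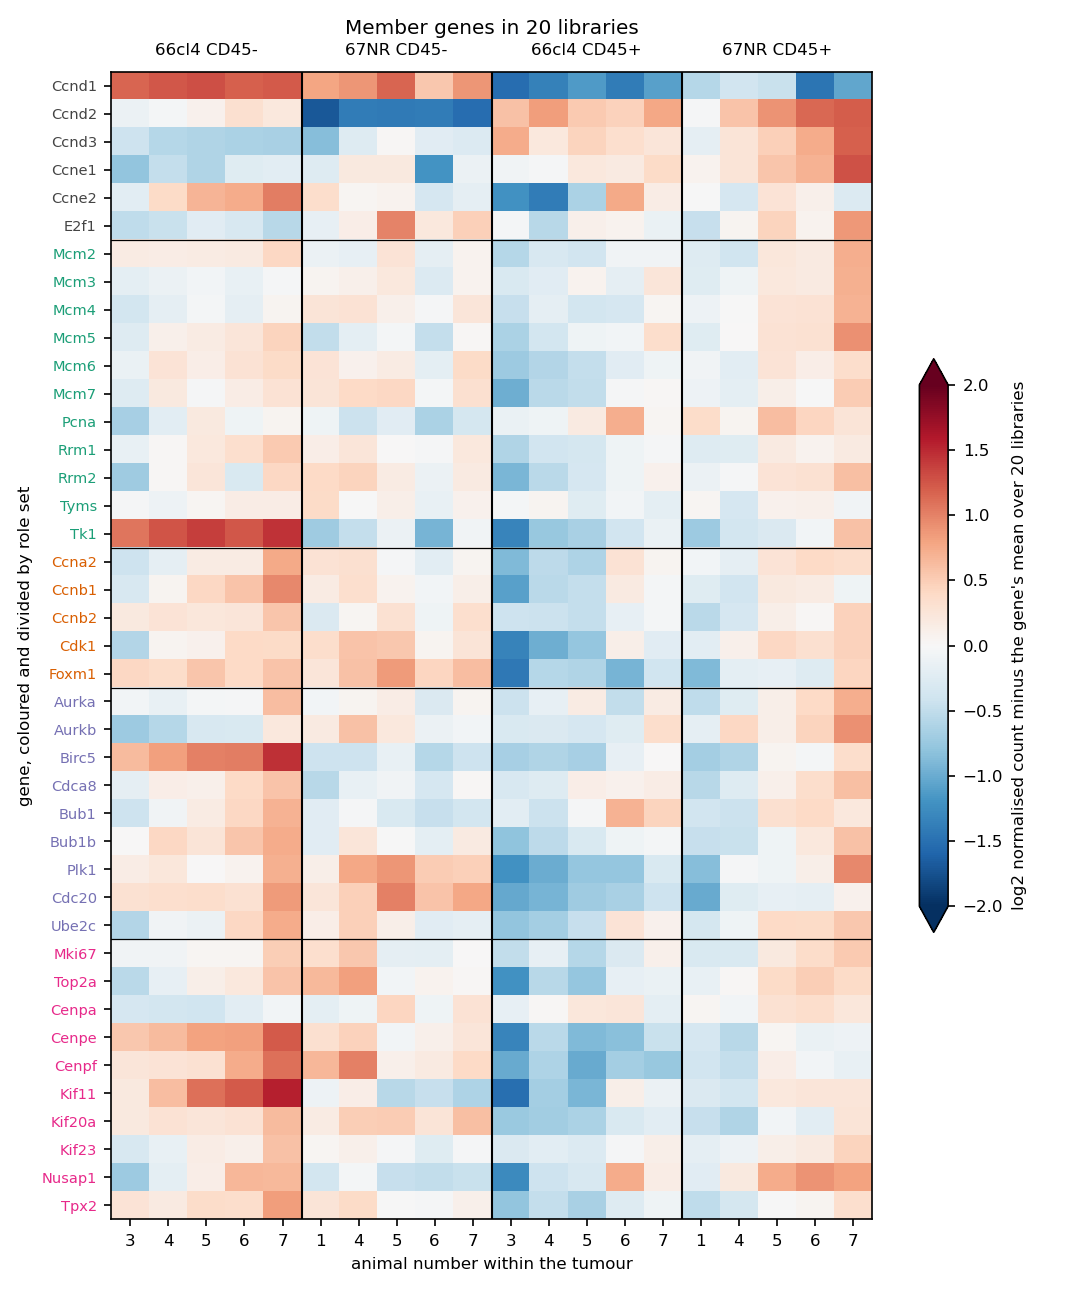
Level of each of the 41 genes (rows, divided by role set) in the 20 libraries (columns, by group and animal), as log2 normalised count minus the mean of the gene over all libraries; red is above and blue below that mean. Ccnd1 is high in both CD45- groups, Ccnd2 is low in 67NR CD45- cells alone, Tk1, Birc5 and Kif11 stand out in 66cl4 CD45- cells, and animals 3 and 7 of the 66cl4 tumours are the low and high ends of their groups for most genes.

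Compared per length, in TPM, the share of all transcripts once counts are divided by length, Pcna was the most abundant of the 41 genes in every group, from 223 ± 20.7 (SD, n = 5) in 67NR CD45- cells to 356 ± 54.1 in 67NR CD45+ cells. Pcna is the sliding clamp that holds DNA polymerase on its template. Cenpa, the histone variant of the centromere, was at rank 2 or 3 in each group. Ccnd1 was at rank 2 in 66cl4 CD45- cells (229 ± 16.1 TPM) and at rank 3 in 67NR CD45- cells (174 ± 21.1 TPM), but at rank 11 of 41 in both CD45+ groups. Among the lowest were E2f1, Ccne1 and Ccne2, the E2F factor and E cyclins of the entry into S phase, with mean levels of 2.67 to 6.75 TPM. TPM here rests on the median length of the annotated transcripts of a gene.

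The groups were compared gene by gene over all genes, and a gene was called when its adjusted p-value was under 0.05 and its log2 fold change was above 1 or below -1 (edgeR's quasi-likelihood test, Benjamini-Hochberg adjustment over all genes tested). All 41 members entered each test.

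In CD45- cells, 4 members were called and all were higher in 66cl4 tumours: Tk1, Ccnd2, Birc5 and Kif11. Of all genes tested 32.2% were called, 13.2% as higher and 18.9% as lower. By adjusted p alone 14 members were higher and 4 lower, beside 67.4% of all genes (33.3% higher, 34.1% lower), and the median log2 fold change of the members was 0.09 against -0.01 for all genes. The groups did not overlap for 6 members that were higher and 1 that was lower (E2f1), beside 25.8 and 27.1% of all genes. The count by adjusted p alone was 9 (8 higher, 1 lower) without 66cl4 animals 5 and 6, and 9 (7 higher, 2 lower) with all 20 libraries in the fit. The 9 that did not pass without these animals were Ccne2, Mcm2, Mcm4, Mcm5, Aurkb, Bub1, Cenpa, Nusap1 and Tpx2 (adjusted p = 0.0768, 0.0559, 0.0687, 0.0600, 0.117, 0.0649, 0.153, 0.161 and 0.0614). That fit had fewer libraries. In the same order, their log2 fold changes in it were 0.53, 0.31, -0.28, 0.41, -0.42, 0.48, -0.28, 0.43 and 0.36. With all animals they were 0.60, 0.26, -0.28, 0.41, -0.46, 0.51, -0.32, 0.58 and 0.30. Of the 18 members, 8 passed under all 16 alternatives, and these were the 4 called ones with Ccnd1, E2f1, Cdca8 and Cenpe. The 4 called members kept their call under all 16 alternatives of analysis.

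In CD45+ cells, 0 members were called between the tumours, also by DESeq2, and 11.8% of all genes were (5.01% higher, 6.82% lower). By unadjusted p under 0.05, 14 members were lower and 0 higher, beside 17.3 and 17.5% of all genes. By adjusted p alone 7 were lower in 66cl4 (Top2a, Cenpf, Mcm6, Mcm4, Cenpe, Plk1 and Cdk1) and 0 higher, beside 22.2% of all genes (10.9% higher, 11.3% lower). The groups did not overlap for 0 members that were higher and 1 that was lower (Cenpf), beside 7.11 and 7.96% of all genes. The log2 fold change of 40 of the 41 members was below 0, with a median of -0.40 against 0.01 for all genes, and Bub1 alone was above 0. The count of 7 moved when animals were left out. It was 3 without 66cl4 animals 5 and 6, where Mcm4, Mcm6, Plk1 and Cenpe (adjusted p = 0.125, 0.0635, 0.122 and 0.126) did not pass, and 2, 4 and 1 without the 66cl4 CD45+ library of animals 3, 4 and 5. Without the 67NR CD45+ libraries of animals 5, 6 and 7 it was 1, 3 and 3, and without that of animal 1 it was 11. In each of these fits 38 to 41 members stayed below 0. None of the 7 passed under all 16 alternatives. Cenpf was lost in 1 of them, the edgeR fit with the animal number as a block (adjusted p = 0.0941). Between tumours these numbers do not mark a shared animal. 1 member was called without animals 5 and 6 (Cdk1), and 1 without 66cl4 CD45+ animal 7 or without 67NR CD45+ animal 1 (Plk1 in both).

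Between the gates of 66cl4 tumours, 9 members were called and all 9 were lower in CD45+ cells: Ccnd1, Tk1, Cenpe, Kif11, Birc5, Cenpf, Foxm1, Cdc20 and Plk1. Of all genes 44.4% were called, 23.9% higher and 20.5% lower. By adjusted p alone 21 members were lower and 4 higher, beside 73.0% of all genes (36.5% in each direction), and the median was -0.47 against 0.00308. The groups did not overlap for 3 members higher and 14 lower in CD45+ cells, beside 31.4 and 30.0% of all genes. Without 66cl4 animals 5 and 6 the count by adjusted p alone was 17, since 8 members did not pass, Ccne1, Mcm7, Rrm1, Ccnb1, Cdk1, Mki67, Top2a and Cenpa (adjusted p = 0.0848, 0.0952, 0.0628, 0.0779, 0.0682, 0.185, 0.149 and 0.539). With the animal as a block, which pairs the gates of each mouse, it was 31, since Ccne2, Mcm5, Rrm2, Ccna2, Cdca8, Ube2c and Nusap1 (adjusted p = 0.00463, 0.0170, 0.0436, 0.0108, 0.0392, 0.00449 and 0.0183) then passed and Cenpa did not (adjusted p = 0.0624). 17 of the 25 members passed under all 16 alternatives. Within animals, 24 of the 41 genes were lower in the CD45+ library of all 5 mice, 3 were higher in all 5 and 14 were mixed, while 36.8% of all genes tested were lower in all 5 and 37.1% higher.

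Between the gates of 67NR tumours, 2 members were called, Ccnd2 (higher in CD45+) and Ccnd1 (lower), beside 39.8% of all genes (20.2% higher, 19.6% lower). By adjusted p alone 6 were higher and 6 lower, beside 67.3% of all genes (32.6% higher, 34.7% lower), and the median was 0.0011 against -0.05. Of these 12 members 10 passed under all 15 alternatives, and Ccne1 and Mcm5 did not. The groups did not overlap for 2 members higher and 2 lower, beside 27.5% (higher) and 28.0% (lower) of all genes. Without the 67NR CD45+ library of animal 1, Nusap1 was called as well. Within animals, 4 genes were lower in all 5 mice, 6 were higher in all 5 and 31 were mixed, beside 36.3% of all genes lower and 34.0% higher in all 5.

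The tumour effect (66cl4 against 67NR) was then compared between the gates as an interaction over all 20 libraries, called by an adjusted p under 0.05. 13 of the 41 members passed, and in all 13 the effect in CD45- cells exceeded that in CD45+ cells. Over all genes 43.1% passed, 21.2% in this direction and 21.9% in the other. 38 members lay above 0 and 3 below (Ccnd3, E2f1 and Cenpa), with a median difference of 0.51 on the log2 scale against -0.03 for all genes. Of the 13, Ccnd1, Ccnd2, Tk1, Birc5, Cenpe and Kif11 passed under all 25 alternatives. The other 7 were Mcm2, Mcm5, Mcm6, Bub1b, Cenpf, Nusap1 and Tpx2. The count was 7 without 66cl4 animals 5 and 6, where all of these but Nusap1 did not pass (adjusted p = 0.0786, 0.107, 0.0969, 0.0790, 0.141 and 0.102), 7 without the 66cl4 CD45+ library of animal 3, and 6 without any one of 66cl4 CD45- animal 7, 67NR CD45- animal 6 and 67NR CD45+ animal 7. Without 66cl4 CD45- animal 3 it was 19. With the animal as a block it was 17, since Ccne2, Ccnb1, Ccnb2, Cdk1 and Cdca8 then passed (adjusted p 0.0260, 0.0331, 0.00853, 0.0341 and 0.0310) and Cenpf did not (adjusted p 0.0605).

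**Figure D3:**
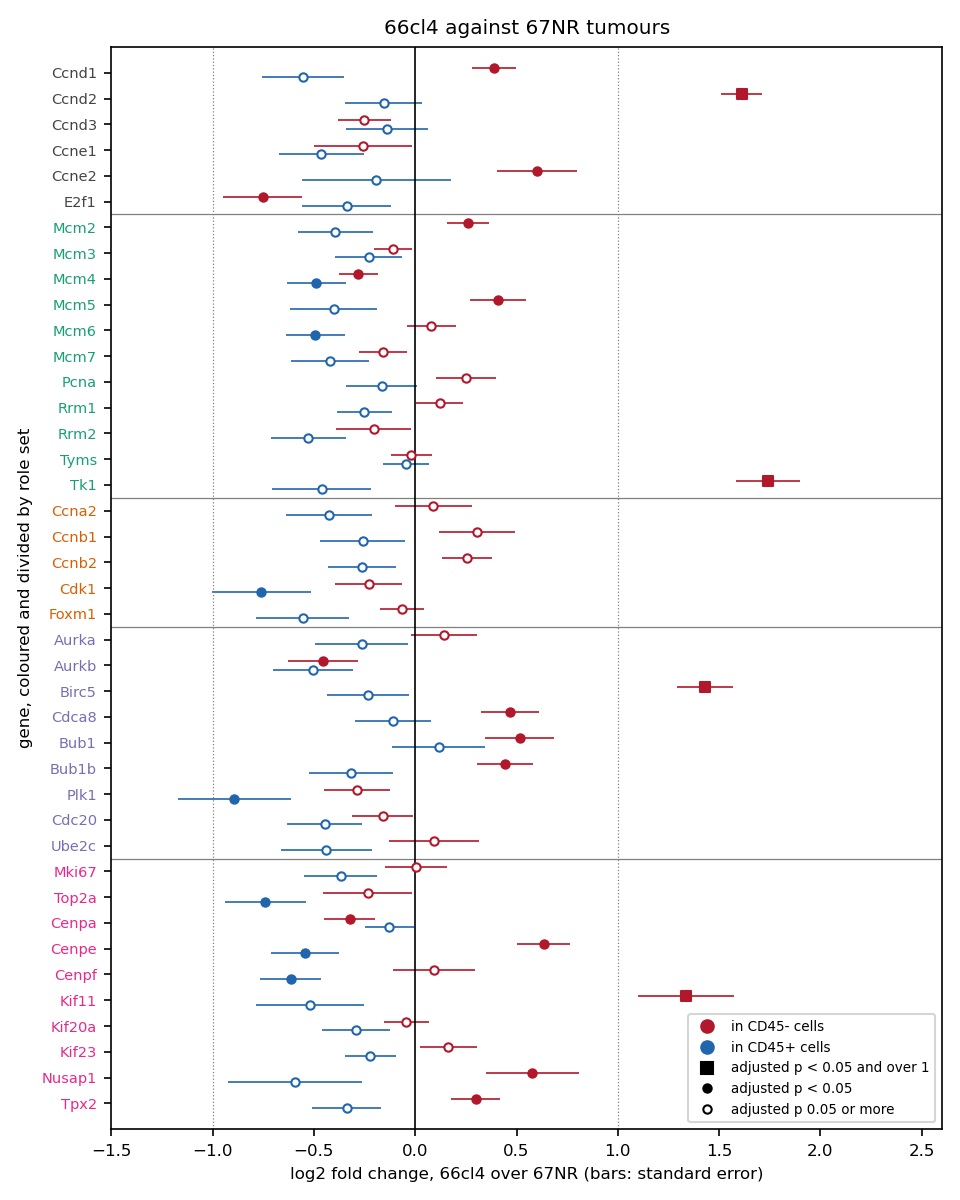
Log2 fold change of each of the 41 genes between 66cl4 and 67NR tumours (horizontal axis), in CD45- cells (red) and in CD45+ cells (blue). Bars are standard errors derived from the edgeR test, with 5 animals per group. Squares are called, filled circles pass by adjusted p alone and open circles do not pass. Dotted lines mark log2 fold changes of -1 and 1. In CD45+ cells 40 of 41 points lie left of 0, and in CD45- cells Ccnd2, Tk1, Birc5 and Kif11 lie beyond 1.

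Other cell types moved along the same contrasts. In CD45+ cells the 5 neutrophil markers were all called higher in 66cl4 tumours, and their summed level was 116699, 60798, 123912, 111966 and 43574 normalised counts against 51053, 26845, 16500.1, 14757 and 6971 in 67NR tumours. The summed level of the 41 genes in the same libraries was lowest in 67NR animal 1, which had the highest neutrophil level of its group, and highest in 67NR animal 7, which had the lowest. In the 66cl4 group animals 6 and 7 had the highest sums of the 41 genes, with neutrophil levels in the middle and at the low end, but animal 4 had the lowest but one of both. Mast cell markers went the other way, with 3 of 4 called lower in 66cl4 CD45+ cells (1343 to 3673 against 16723 to 23100.2), as were 4 of 4 tested erythroid markers and 1 of 7 macrophage, 1 of 4 dendritic cell, 2 of 6 fibroblast and 1 of 3 tested endothelial markers, while 2 of 4 tested epithelial markers were called higher and no T cell, B cell or leukocyte marker was called. In CD45- cells 4 of 4 mast cell markers (18.6 to 62.9 against 512 to 15115) and 4 of 5 endothelial markers (489.7 to 970.2 against 935 to 3782) were called lower in 66cl4 tumours, with 3 of 6 fibroblast markers (7972 to 13665 against 10507 to 17281) and 4 of 6 leukocyte markers. Of the other blood cell lists, 2 of 5 neutrophil, 3 of 7 macrophage, 1 of 1 tested T cell and 1 of 2 tested dendritic cell markers were called lower, 1 of 2 tested B cell markers higher, and 0 of 4 tested erythroid markers either way. Of 5 epithelial markers 2 were called higher and 1 lower (6057 to 6843 against 120 to 379). Of the 8 genes of immature neutrophil granules, Mpo, Ms4a3, Fcnb and Camp were at 0 in every 66cl4 CD45- library, and 0 of the 3 tested in CD45+ cells were called. Between the gates, 6 of 6 leukocyte markers were called higher and 6 of 6 fibroblast markers lower in CD45+ cells of both tumours. Of 4 tested epithelial markers, 1 was called higher and 2 lower in CD45+ cells of each tumour. Of 3 tested endothelial markers, 2 were called higher and 1 lower in 66cl4 CD45+ cells (mean sum 1130 against 666 in CD45- cells). In 67NR tumours 3 of 5 were called lower. Of the tested erythroid markers, 1 of 2 was called lower in 66cl4 and 0 of 4 in 67NR CD45+ cells. The part of these cell types in the values of the 41 genes was not tested.

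Ccnd1 in 66cl4 tumours and Ccnd2 in 67NR tumours gave the largest gate differences of the 41 genes. Ccnd1, the D cyclin of many epithelial and mesenchymal cells, was at 11903, 12559, 12918, 12104 and 12364 normalised counts in 66cl4 CD45- libraries and at 9128, 9798, 11828, 7720.3 and 9812 in 67NR CD45- libraries. In CD45+ libraries it was at 1849.8, 2080.2, 2418, 2017 and 2485 in 66cl4 and at 3576, 4068, 3871, 1923 and 2574 in 67NR tumours. Every CD45- library lay above every CD45+ library. CD45+ cells were 5.81-fold lower in 66cl4 tumours (log2 fold change -2.54 ± 0.12 SE, adjusted p = 3.24e-09) and 3.01-fold lower in 67NR tumours (log2 fold change -1.59 ± 0.21 SE, adjusted p = 5.26e-05). Between the tumours it was 1.31-fold higher in 66cl4 CD45- cells by adjusted p alone (adjusted p = 0.00550), and the gates differed in this effect by 0.93 ± 0.23 on the log2 scale (adjusted p = 0.00329).

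Ccnd2, the D cyclin of many blood cells, was at 1298, 1372, 1501, 1774 and 1630 in 66cl4 CD45- and at 436, 538, 533, 534 and 492 in 67NR CD45- libraries. CD45+ libraries held 2114, 2517, 2039, 1939 and 2425 in 66cl4 and 1388, 2092, 2643, 3123 and 3264 in 67NR tumours. The 67NR CD45- group thus stood apart from the other 3, with no overlap. The tumours differed 3.06-fold in CD45- cells (log2 fold change 1.61 ± 0.10 SE, adjusted p = 6.31e-09), while in CD45+ cells the groups overlapped (log2 fold change -0.16 ± 0.19 SE, adjusted p = 0.607). The interaction was 1.77 ± 0.24 (adjusted p = 7.54e-06). CD45+ over CD45- was 4.91-fold in 67NR tumours (log2 fold change 2.30 ± 0.20 SE, adjusted p = 1.43e-06) and 1.43-fold in 66cl4 tumours (log2 fold change 0.52 ± 0.12 SE, adjusted p = 0.00154), the second short of the fold limit.

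Ccnd3, the third D cyclin, was at 656, 589, 578, 567 and 561 in 66cl4 CD45- and at 487, 737, 895, 750 and 724 in 67NR CD45- libraries. CD45+ libraries held 1472, 1012, 1192, 1112 and 1035 in 66cl4 and 773, 1055, 1219.6, 1468 and 2007 in 67NR tumours. In all 10 animals the CD45+ library held more of it, by 1.93-fold in 66cl4 (adjusted p = 4.79e-06) and 1.8-fold in 67NR tumours (adjusted p = 0.00575), just inside the fold limit in 66cl4, where 4 alternatives placed it just beyond, DESeq2, RLE size factors, and the fits without the CD45+ library of animal 4 or 7 (log2 fold change up to 1.04). Per length, Ccnd1 took 60.2% ± 2.00 (SD, n = 5) of the summed D cyclin TPM in 66cl4 and 66.2% ± 4.07 in 67NR CD45- cells, but 14.2% ± 1.82 and 19.1% ± 8.66 in CD45+ cells. Ccnd2 held the largest share in CD45+ cells of both tumours, at 53.9% ± 4.38 and 51.2% ± 5.91, and 27.7% ± 2.75 and 13.2% ± 1.56 in CD45- cells.

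The E cyclins, which activate Cdk2 at the start of S phase, were low. Ccne1 was at 49.1, 60.5, 55.8, 71.2 and 72.9 in 66cl4 CD45- and at 71.1, 96.8, 96.6, 36.7 and 77.7 in 67NR CD45- libraries, and CD45+ libraries held 80.7, 83.1, 97.4, 95.7 and 109.9 in 66cl4 and 89.0, 101, 124, 137 and 204 in 67NR tumours. CD45+ cells passed as higher by adjusted p alone in both tumours, 1.48-fold in 66cl4 (adjusted p = 0.00855, and 0.0848 without animals 5 and 6) and 1.72-fold in 67NR (adjusted p = 0.0285). The 67NR difference did not pass in 3 of 15 alternatives, each with 1 library left out (adjusted p up to 0.0565). Ccne2 was at 150, 226, 277, 290 and 350.4 in 66cl4 CD45- and at 221, 178, 183, 137 and 153 in 67NR CD45- libraries, with 75.1, 65.9, 112, 291 and 191 in 66cl4 and 172, 137, 210.4, 186 and 144 in 67NR CD45+ libraries. Its widest group was 66cl4 CD45+, where animals 6 and 7 held more than animals 3, 4 and 5. The tumours differed in CD45- cells by adjusted p alone (log2 fold change 0.60 ± 0.20 SE, adjusted p = 0.0150, and 0.0768 without 66cl4 animals 5 and 6), and the groups overlapped.

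E2f1, the E2F factor that switches on S phase genes, was at 98.2, 103, 119.9, 113 and 95.8 in 66cl4 CD45- and at 125, 153, 280.1, 162 and 195 in 67NR CD45- libraries. CD45+ libraries held 136, 95.6, 150.4, 147 and 128 in 66cl4 and 101, 145, 192, 147 and 256 in 67NR tumours. It was the member with the most negative tumour effect in CD45- cells, 1.69-fold lower in 66cl4 (log2 fold change -0.75 ± 0.19 SE, adjusted p = 0.00328) without overlap, although short of the fold limit. In CD45+ cells the log2 fold change was -0.34 ± 0.22 SE (adjusted p = 0.296), and the interaction of -0.41 ± 0.32 did not pass (adjusted p = 0.308). Over the 6 genes of G1 the interaction passed for 2, the D cyclins Ccnd1 and Ccnd2.

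The 11 genes of replication and nucleotide synthesis had the lowest sum in 66cl4 CD45+ and the highest in 67NR CD45+ cells. Their summed level was 17110.3 ± 2472 normalised counts (SD, n = 5) in 66cl4 CD45-, 15824 ± 1617 in 67NR CD45-, 15478 ± 2715 in 66cl4 CD45+ and 19023 ± 2644 in 67NR CD45+ cells. Pcna, the highest of them, weighed heavily in this sum. It was at 4020.3, 5509.5, 7264, 5982 and 6618 in 66cl4 CD45- and at 6019.5, 4704, 5429, 4121 and 4960.2 in 67NR CD45- libraries. CD45+ libraries held 5828, 5970.1, 7193, 10508 and 6500.3 in 66cl4 and 8233, 6577, 9710, 8565 and 7616 in 67NR tumours. In 67NR tumours it was 1.61-fold higher in CD45+ cells, by adjusted p alone and without overlap (log2 fold change 0.69 ± 0.14 SE, adjusted p = 8.11e-04), and in 66cl4 tumours the log2 fold change was 0.26 ± 0.19 SE (adjusted p = 0.231).

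Tk1 was the one gene of the set called between the tumours. It encodes cytosolic thymidine kinase, which recycles thymidine for DNA synthesis. Tk1 was at 848, 964, 1061, 957 and 1103 in 66cl4 CD45- libraries and at 247, 293, 371, 212 and 387 in 67NR CD45- libraries. In CD45+ libraries it was at 163, 241, 259, 310.4 and 368 in 66cl4 and 245, 313, 332, 389 and 605 in 67NR tumours. The 66cl4 CD45- group lay above all other libraries. It was 3.34-fold higher than 67NR CD45- cells (log2 fold change 1.74 ± 0.16 SE, adjusted p = 2.89e-07) and 3.73-fold higher than CD45+ cells of the same tumours (log2 fold change -1.90 ± 0.19 SE for CD45+ over CD45-, adjusted p = 1.42e-06). Its interaction was the largest of the 41 genes, 2.20 ± 0.32 (adjusted p = 2.06e-05). Tyms, which makes the same nucleotide by another route, had log2 fold changes of -0.02 ± 0.10 SE in CD45- and -0.05 ± 0.11 in CD45+ cells (adjusted p = 0.873 and 0.820).

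The 6 Mcm genes encode the helicase ring that unwinds DNA at the fork. Mcm2 was at 814, 804, 816, 829 and 975 in 66cl4 CD45- and at 674, 653, 881, 644 and 766 in 67NR CD45- libraries. CD45+ libraries held 494, 584, 557, 695 and 692 in 66cl4 and 609, 552, 853, 829 and 1201 in 67NR tumours. The tumour effect on Mcm2 was 0.26 ± 0.10 in CD45- cells (adjusted p = 0.0391, and 0.0559 without 66cl4 animals 5 and 6) and -0.40 ± 0.18 in CD45+ cells (adjusted p = 0.150), and the difference passed (0.66 ± 0.23, adjusted p = 0.0296). It also passed for Mcm5 and Mcm6 (0.81 and 0.57), but for none of the 3 was it kept under all alternatives, and without 66cl4 animals 5 and 6 the adjusted p was 0.0786, 0.107 and 0.0969. For Mcm3, Mcm4 and Mcm7 the interaction was 0.12 ± 0.21, 0.21 ± 0.19 and 0.26 ± 0.25. The tumour effects of the 6 in CD45- cells ranged from -0.28 ± 0.0951 for Mcm4 (adjusted p = 0.0176) to 0.41 ± 0.14 for Mcm5 (adjusted p = 0.0171). Neither passed without 66cl4 animals 5 and 6 (adjusted p = 0.0687 and 0.0600) or with all 20 libraries in the fit (0.0758 and 0.0889). In CD45+ cells all 6 were below 0, from -0.49 for Mcm6 to -0.23 for Mcm3. Rrm1 and Rrm2, the subunits of ribonucleotide reductase, had log2 fold changes of 0.12 and -0.21 in CD45- and -0.25 and -0.53 in CD45+ cells, none past adjusted p.

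The 5 genes of the S, G2 and M cyclins with Cdk1 and Foxm1 had no call between the tumours in either gate. Ccna2, the cyclin of S phase and G2, was at 853, 1008, 1279, 1272 and 1933 in 66cl4 CD45- and at 1391, 1416, 1119, 982 and 1184 in 67NR CD45- libraries, and CD45+ libraries held 616, 791, 739, 1385 and 1185 in 66cl4 and 1091, 1009, 1370, 1501 and 1452 in 67NR tumours. Ccnb1, the cyclin of entry into mitosis, was at 592, 771, 989, 1101 and 1432 in 66cl4 CD45- and at 826, 936, 776, 709 and 798 in 67NR CD45- libraries. Its CD45+ libraries held 349, 508, 528, 838 and 716 in 66cl4 and 623, 568, 847, 823 and 699 in 67NR tumours. For both, the 66cl4 CD45- group spread more widely than the 67NR CD45- group and overlapped with it. Ccnb1 and Ccnb2 were lower in CD45+ than in CD45- cells of 66cl4 tumours by adjusted p alone, 1.69- and 1.54-fold (adjusted p = 0.0231 and 3.08e-04), the first not without animals 5 and 6 (adjusted p = 0.0779).

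Cdk1, the kinase these cyclins activate, was at 442, 685, 700.1, 869 and 864 in 66cl4 CD45- and at 844, 989, 959.7, 687 and 796 in 67NR CD45- libraries. CD45+ libraries held 261, 338, 389, 722 and 565 in 66cl4 and 573, 714, 882, 829 and 907 in 67NR tumours. It was 1.69-fold lower in 66cl4 CD45+ cells by adjusted p alone (log2 fold change -0.76 ± 0.24 SE, adjusted p = 0.0437), and the groups overlapped through 66cl4 animal 6. Foxm1, the factor that switches on G2 and M genes, was 2.33-fold lower in CD45+ than in CD45- cells of 66cl4 tumours (229 ± 58.8 against 527 ± 34.8 normalised counts, SD, n = 5, log2 fold change -1.22 ± 0.17 SE, adjusted p = 3.43e-05). In 67NR tumours it was 1.65-fold lower, by adjusted p alone (343 ± 109.6 against 564 ± 89.0, adjusted p = 0.00668). It was lower in the CD45+ library of all 10 animals.

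Among the 9 mitotic kinases, checkpoint proteins and partners of the anaphase-promoting ubiquitin ligase, Birc5 was the one called between tumours. Birc5 encodes survivin, a subunit of the chromosomal passenger complex that also restrains cell death. Its levels were 807, 922, 1046, 1051 and 1424 in 66cl4 CD45- and 389, 391, 469, 352 and 391 in 67NR CD45- libraries, and 328, 343, 328, 462 and 524 in 66cl4 and 325, 344, 538, 503 and 664 in 67NR CD45+ libraries. As with Tk1, the 66cl4 CD45- group lay above all other libraries, 2.7-fold over 67NR CD45- cells (log2 fold change 1.43 ± 0.14 SE, adjusted p = 5.74e-07). The interaction was 1.66 ± 0.27 (adjusted p = 6.79e-05). Of its partners in the complex, Aurkb, the kinase, was lower in 66cl4 CD45- cells by adjusted p alone and Cdca8, the borealin subunit, higher (-0.46 ± 0.17 and 0.47 ± 0.14, adjusted p = 0.0302 and 0.0109). Cdca8 passed under all 16 alternatives. Aurkb did not pass in 9 of 16, among them the fits without 66cl4 animals 5 and 6 (adjusted p = 0.117), with all 20 libraries (0.0607) and with the animal number as a block (0.153). Aurkb was at 188, 211, 249.7, 251 and 360.3 in 66cl4 CD45- and at 351, 467, 359, 288 and 301 in 67NR CD45- libraries, and at 252, 256, 248, 262 and 396 in 66cl4 and 276, 414, 337, 423 and 589 in 67NR CD45+ libraries.

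Plk1, which drives entry into and passage through mitosis, was at 167, 178, 152, 159 and 249 in 66cl4 CD45- and at 164, 260.3, 278, 216 and 212 in 67NR CD45- libraries. CD45+ libraries held 65.4, 76.4, 88.7, 88.4 and 123 in 66cl4 and 84.3, 149, 143, 164 and 296 in 67NR tumours. It had the most negative tumour effect of the 41 genes in CD45+ cells (log2 fold change -0.89 ± 0.28 SE, adjusted p = 0.0390), in groups that overlapped, and did not pass without 66cl4 animals 5 and 6 (adjusted p = 0.122). In 66cl4 tumours CD45+ cells were 2.07-fold lower (log2 fold change -1.05 ± 0.19 SE, adjusted p = 3.33e-04), a call that fell short of the fold limit with RLE size factors and without the 66cl4 CD45+ library of animals 3 or 4 or the CD45- library of animal 7 (log2 fold change -0.99, -0.91, -0.96 and -0.89). Cdc20, the activator of the anaphase-promoting complex, was at 389, 397, 402, 389.9 and 568 in 66cl4 and 373, 439, 636, 466 and 539 in 67NR CD45- libraries, and at 156, 166, 192, 202 and 237 in 66cl4 and 156, 267, 283, 277 and 335 in 67NR CD45+ libraries. The gates of each tumour did not overlap. CD45+ cells were 2.29-fold lower in 66cl4 (log2 fold change -1.19 ± 0.15 SE, adjusted p = 1.30e-05) and 1.86-fold lower in 67NR tumours (log2 fold change -0.90 ± 0.19 SE, adjusted p = 0.00152), the second by adjusted p alone.

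Bub1, a kinase of the spindle checkpoint, was the member above 0 between tumours in CD45+ cells (log2 fold change 0.12 ± 0.23 SE, adjusted p = 0.766). It was at 384, 331, 439, 722 and 605 in 66cl4 and at 340.3, 329.7, 552, 584 and 514 in 67NR CD45+ libraries, and at 334, 425, 498, 591 and 721 in 66cl4 and 379, 435, 359, 322 and 343 in 67NR CD45- libraries, where it was 1.43-fold higher in 66cl4 by adjusted p alone (adjusted p = 0.0163, and 0.0649 without animals 5 and 6). Ube2c, the ubiquitin-conjugating enzyme of the anaphase-promoting complex and the highest of this set, was at 836, 1195, 1161, 1667 and 2092 in 66cl4 CD45- and at 1378, 1756, 1360.1, 1071 and 1106 in 67NR CD45- libraries. CD45+ libraries held 729, 788, 909, 1526 and 1334 in 66cl4 and 980.2, 1186, 1649.5, 1639 and 1822 in 67NR tumours. Its 4 groups overlapped and no comparison of unpaired groups passed. Within 66cl4 tumours, however, the CD45+ library was the lower one in 5 of 5 animals, at 0.637 to 0.915 of the CD45- library, and with the animal as a block the difference passed (adjusted p = 0.00449). Aurka, the kinase of the spindle poles, passed in none, with log2 fold changes from -0.26 to 0.17 between groups.

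Mki67, which coats mitotic chromosomes and is the usual stain for dividing cells, overlapped between the tumours in both gates and passed no test between them. It was at 4773, 4764, 5175, 5163 and 7063 in 66cl4 CD45- and at 6348, 7246, 4425, 4398 and 5051 in 67NR CD45- libraries (log2 fold change 0.00 ± 0.15 SE, adjusted p = 0.986). CD45+ libraries held 3562, 4488, 3366, 4122 and 5358 in 66cl4 and 4039, 4050.3, 5747, 6432 and 7166 in 67NR tumours (log2 fold change -0.37 ± 0.18 SE, adjusted p = 0.172). Within 66cl4 tumours it was lower in the CD45+ library of all 5 animals, 1.31-fold by adjusted p alone (adjusted p = 0.0393, and 0.185 without animals 5 and 6), and in 67NR tumours it was lower in 2 and higher in 3. Top2a, the topoisomerase that untangles sister chromatids, was at 909, 1173, 1428, 1533 and 1960.4 in 66cl4 CD45- and at 2062, 2342, 1274, 1392 and 1349 in 67NR CD45- libraries. In CD45+ libraries it was at 570.2, 900.1, 772, 1173 and 1204 in 66cl4 and at 1197, 1337, 1717, 1861 and 1715 in 67NR tumours. Top2a was 1.67-fold lower in 66cl4 CD45+ cells by adjusted p alone (log2 fold change -0.74 ± 0.20 SE, adjusted p = 0.0204), with 66cl4 animal 7 reaching the lowest 67NR library.

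Kif11 encodes the motor that pushes the spindle poles apart. It was at 769.8, 1024, 1438, 1564 and 1957 in 66cl4 CD45- libraries and at 622, 731, 455, 487 and 436 in 67NR CD45- libraries. CD45+ libraries held 235, 416, 357, 723 and 617 in 66cl4 and 546, 519.9, 773, 792 and 788 in 67NR tumours. The 66cl4 CD45- group spread the most, from animal 3 to animal 7, and still lay above all 67NR CD45- libraries (2.53-fold, log2 fold change 1.34 ± 0.24 SE, adjusted p = 3.77e-04). In 66cl4 tumours CD45+ cells were 2.92-fold lower (log2 fold change -1.54 ± 0.32 SE, adjusted p = 9.57e-04). The interaction was 1.85 ± 0.39 (adjusted p = 8.50e-04). The other kinesins of the set, Kif20a and Kif23, which act in cytokinesis, had log2 fold changes of -0.04 ± 0.11 and 0.16 ± 0.14 SE between the tumours in CD45- cells (adjusted p = 0.738 and 0.319).

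The kinetochore genes Cenpe and Cenpf had large gate effects. Cenpe, the kinetochore motor, ranged over 848 to 1374 in 66cl4 CD45- and 235 to 431 in 66cl4 CD45+ libraries, 3.07-fold lower in the latter (log2 fold change -1.62 ± 0.18 SE, adjusted p = 3.95e-06). Cenpf was 2.64-fold lower there (log2 fold change -1.40 ± 0.18 SE, adjusted p = 1.52e-05), at 142 to 185 against 336 to 608. In 67NR tumours both were also lower in CD45+ cells by adjusted p alone, short of the fold limit. They passed there under all 15 alternatives (adjusted p up to 0.0355 for Cenpe and 0.0291 for Cenpf). Each was lower in the CD45+ library of 4 of the 5 67NR animals. Between the tumours, Cenpe was higher in 66cl4 CD45- cells (0.63 ± 0.13, adjusted p = 6.73e-04) and lower in 66cl4 CD45+ cells (-0.54 ± 0.17, adjusted p = 0.0374, and 0.126 without 66cl4 animals 5 and 6), both by adjusted p alone, and the interaction of 1.17 ± 0.23 passed (adjusted p = 4.01e-04). Cenpf was the 1 member whose CD45+ groups did not overlap between tumours, at 142, 185, 142, 177 and 167 in 66cl4 and 217, 203, 312, 272 and 256 in 67NR libraries (log2 fold change -0.62 ± 0.15 SE, adjusted p = 0.0121). Groups without overlap in this direction were found for 7.96% of all genes tested. Cenpa was at 899, 876, 858, 975 and 1090 in 66cl4 CD45-, 985, 1066, 1515, 1060.2 and 1379.7 in 67NR CD45-, 1013, 1153, 1327, 1332 and 985 in 66cl4 CD45+ and 1158, 1091, 1398, 1434 and 1326 in 67NR CD45+ libraries. Its tumour effect in CD45- cells was -0.32 ± 0.13 (adjusted p = 0.0340), and it did not pass without 66cl4 animals 5 and 6 (adjusted p = 0.153) or in 7 other alternatives of 16.

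Nusap1 and Tpx2 organise spindle microtubules. Nusap1 was at 514, 742, 928, 1347 and 1325 in 66cl4 CD45- and at 656, 824, 619, 602 and 625 in 67NR CD45- libraries. CD45+ libraries held 350.5, 634, 679.8, 1420.4 and 935 in 66cl4 and 723, 966, 1417, 1573 and 1485 in 67NR tumours. In 67NR tumours the CD45+ library held more of it in all 5 animals, 1.84-fold by adjusted p alone (log2 fold change 0.88 ± 0.19 SE, adjusted p = 0.00153). In 66cl4 tumours the log2 fold change was -0.30 ± 0.36 SE (adjusted p = 0.469), with 4 animals lower and 1 higher. With the animal as a block, which pairs the gates, the difference passed by adjusted p alone (log2 fold change -0.36, adjusted p = 0.0183). The interaction passed (1.16 ± 0.44, adjusted p = 0.0385) but was lost in 8 of its alternatives, which were the fit without the filter on low counts (adjusted p = 0.0831) and 7 fits that left out 1 library each (adjusted p 0.0576 to 0.0730), namely 66cl4 CD45+ animal 3, 66cl4 CD45- animals 6 and 7, 67NR CD45- animal 6, and 67NR CD45+ animals 5, 6 and 7. For Tpx2 it passed at 0.64 ± 0.23 (adjusted p = 0.0330), and did not pass in 7 of 25 alternatives. These were the fit without 66cl4 animals 5 and 6 (adjusted p = 0.102) and 6 fits that left out 1 library each (adjusted p 0.0516 to 0.0706), namely 66cl4 CD45+ animal 3, 66cl4 CD45- animal 7, 67NR CD45- animal 6, and 67NR CD45+ animals 5, 6 and 7. The tumour effect in CD45- cells passed for both (adjusted p = 0.0421 and 0.0439), but for neither without 66cl4 animals 5 and 6 (adjusted p = 0.161 for Nusap1 and 0.0614 for Tpx2). Of 16 alternatives, this effect did not pass in 11 for Nusap1 and in 10 for Tpx2.

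**Figure D4:**
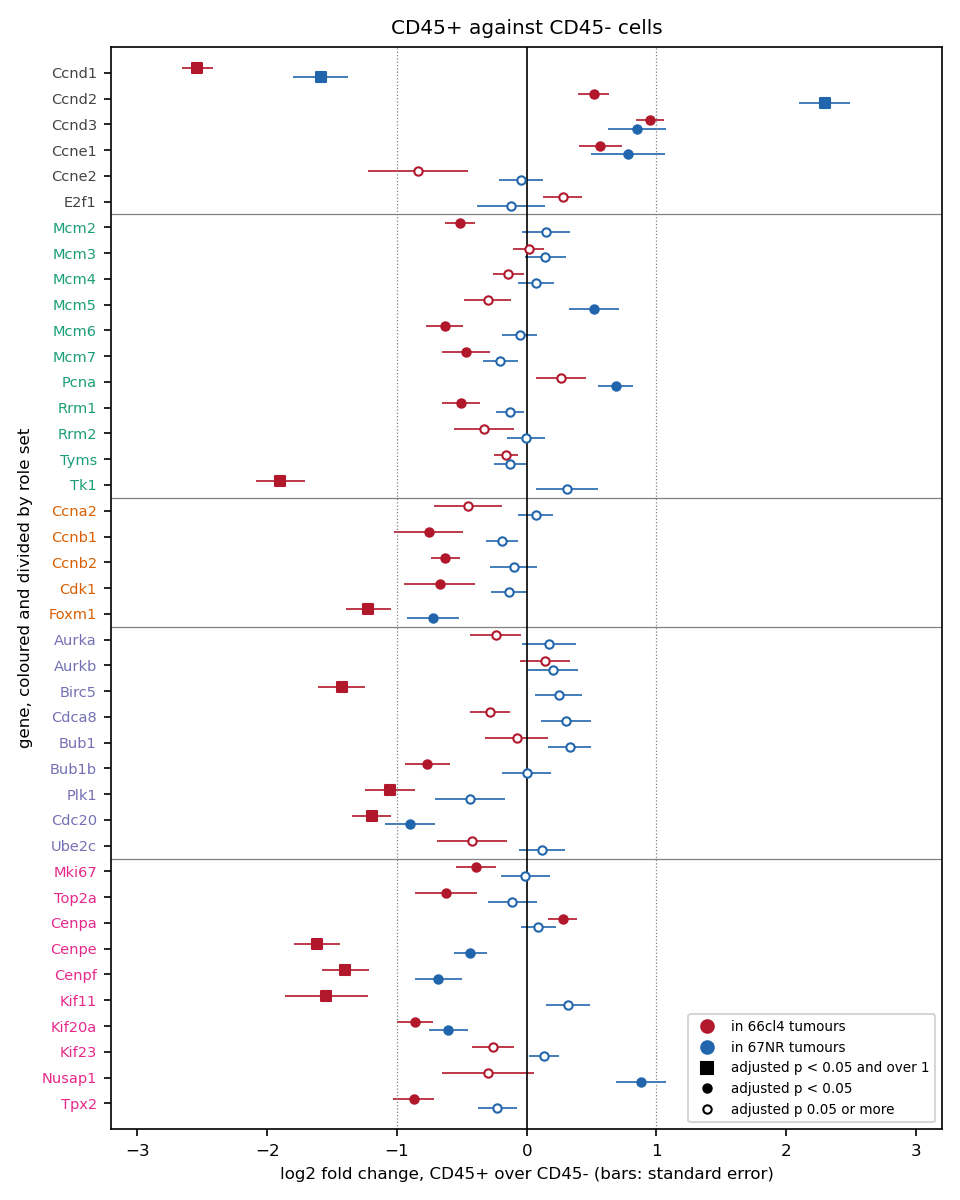
Log2 fold change of each of the 41 genes between CD45+ and CD45- cells (horizontal axis), in 66cl4 tumours (red) and in 67NR tumours (blue). Bars are standard errors derived from the edgeR test, with 5 animals per group. Squares are called, filled circles pass by adjusted p alone and open circles do not pass. Dotted lines mark -1 and 1. Red points lie left of 0 for 33 of 41 genes, whereas the blue points lie on both sides.

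**Figure D5:**
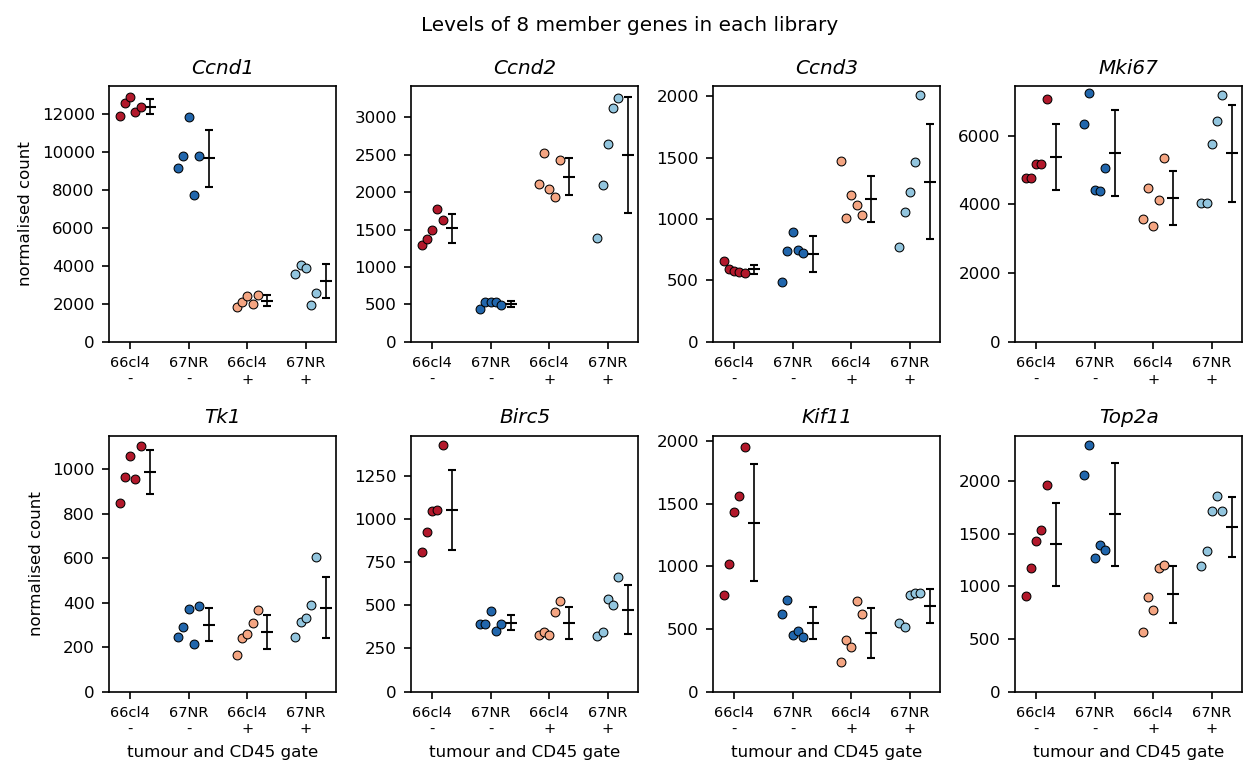
Normalised counts (vertical axes, each from 0) of 8 genes in every library, by tumour and CD45 gate (- or +); points are animals and the bar beside each group is the mean with SD (n = 5). Tk1 and Birc5 are higher in the 66cl4 CD45- libraries than in any other, Kif11 is higher there than in the 67NR CD45- and 66cl4 CD45+ libraries, Ccnd2 is low in 67NR CD45- cells alone, and Mki67 overlaps between the tumours in both gates.

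The other genes of the pathway were read from 6 lists of 75 genes, whose calls are again set beside 32.2, 11.8, 44.4 and 39.8% of all genes in the 4 comparisons. In CD45- cells 1 of 12 genes of origin licensing and firing was called between the tumours, Orc1, a subunit of the origin recognition complex (log2 fold change 1.40 ± 0.21 SE, adjusted p = 4.76e-05). 0 of 13 genes of the replication fork, 0 of 11 Cdk partners and phosphatases, 0 of 7 E2F and MuvB factors and 0 of 22 other mitotic genes were called there. By unadjusted p under 0.05, edgeR put 7, 8, 2 and 7 of these genes apart, beside 69.8% of all genes. Of 8 tested Cdk inhibitors and pocket proteins, which hold the cycle back, 2 were higher and 2 lower. Cdkn2a, which encodes p16 and p19Arf, ranged over 2.49 to 5.83 for the 66cl4 CD45- libraries and 216 to 314 for those of 67NR, in normalised counts (log2 fold change -5.97 ± 0.22 SE, adjusted p = 3.44e-11). Cdkn1a, which encodes p21, was lower too (870 ± 189 against 3736 ± 832, SD, n = 5, log2 fold change -2.07 ± 0.17 SE, adjusted p = 1.70e-07), and Rb1 and Cdkn2c were higher (1.35 and 1.35).

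In CD45+ cells 1 of 11 Cdk partners (Wee1, log2 fold change -1.01 ± 0.17 SE, adjusted p = 0.00167), 1 of 22 other mitotic genes (Prc1, log2 fold change -1.13 ± 0.18 SE, adjusted p = 0.00136) and 3 of 9 tested Cdk inhibitors and pocket proteins were called between the tumours. Of the last, Cdkn2a was lower in 66cl4 (-2.04 ± 0.34 SE, adjusted p = 0.00153) and Cdkn2b and Cdkn1a higher (1.26 and 1.13, adjusted p = 0.0108 and 0.0109). Without 66cl4 animals 5 and 6 Cdkn2b and Cdkn1a were not called (adjusted p = 0.0676 and 0.0552), and Dut was (log2 fold change -1.04). Cdkn1a was not called without 66cl4 CD45+ animal 5 either (log2 fold change 0.89), and Wee1 fell inside the fold limit in 6 of 16 alternatives. 0 of 12 licensing, 0 of 13 fork and 0 of 7 E2F and MuvB genes were called, and 5, 4 and 3 had an unadjusted p under 0.05, beside 34.8% of all genes. As with the 41 members, the mitotic genes lay below 0 in CD45+ cells, all 22 of them with a median log2 fold change of -0.50, and so did all 13 fork genes with a median of -0.31.

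Between the gates of 66cl4 tumours, 1 licensing gene (Orc1), 2 fork genes (Prim1 and Dut), 4 Cdk partners and 4 other mitotic genes were called, all lower in CD45+ cells. The 2 largest among the Cdk partners were Cdc25c and Cks1b (-1.67 and -1.67) and among the mitotic genes Anln and Ect2 (-2.05 and -1.59). Of the E2F and MuvB factors 2 were lower and 1 higher, led by E2f7 (-1.91) and E2f2 (1.61). Of the Cdk inhibitors and pocket proteins 5 were higher and 1 lower in CD45+ cells, led by Cdkn2b (4.58) and Cdkn2c (-2.67). In 67NR tumours the calls were fewer, with 1 licensing gene higher (Gmnn, 1.27), Cdk4 and Cdk6 lower (-1.16 and -1.06, the second -0.97 and not called without 67NR CD45+ animal 7), 3 inhibitors and pocket proteins higher and 1 lower (led by Cdkn2a, -2.15, and Rbl2, 1.93), and E2f7 and Anln lower (-1.12 and -1.44). None of the 13 fork genes was called there, and 8 had an unadjusted p under 0.05, beside 69.9% of all genes.

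The interaction passed for 6 of 12 licensing genes, 6 of 22 other mitotic genes and 3 of 7 E2F and MuvB factors, all in the direction of the 13 members. It also passed for 7 of 13 fork genes (6 in that direction), 6 of 11 Cdk partners (4) and 6 of 9 tested inhibitors and pocket proteins (3). The largest of each list were Orc1 and Gins2 (1.35 and 1.03), Kif15 and Ect2 (1.27 and 0.98), E2f7 and E2f3 (0.78 and 0.70), Dut and Rfc5 (0.84 and 0.80), Cks2 and Cdc25c (1.07 and 1.02), and Cdkn2a and Cdkn1a (-3.94 and -3.21). Without 66cl4 animals 5 and 6, Rfc5 and E2f7 did not pass (adjusted p = 0.0651 and 0.0970). Beside these stand the 43.1% of all genes that passed.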

How the data were processed

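RNA of sorted, viable cells was made into libraries with a SENSE mRNA-Seq kit and sequenced as single reads. The authors trimmed reads with fastp, quantified transcripts with Salmon 1.3.0 and summed them to genes with tximport, and the deposited table holds these estimated counts for 52783 mouse genes in 20 libraries. The methods name a human transcriptome, while the identifiers are mouse, and the mouse build is not given in the sources used here. Estimated counts were rounded to whole numbers (largest change 0.5). No column of another sample was present, and 1291 identifiers without a symbol took 2.58% of counts. Samples were grouped by title.

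Genes were filtered with filterByExpr (minimum count 10, total 15), scaled by TMM and tested with edgeR 4.0.16 (quasi-likelihood, robust) in R 4.3.3, with Benjamini-Hochberg adjustment over all genes tested. The fits within a comparison used its 10 libraries, and the interaction used all 20. Each SE of a log2 fold change was its absolute value divided by the square root of the F statistic of the edgeR test. The estimate of spread in that test draws on all genes tested. Normalised counts were counts divided by DESeq2 size factors, and TPM used median transcript lengths of the GENCODE mouse annotation. The alternatives were DESeq2 1.42.0, RLE size factors, no filter, all 20 libraries in the fit, the animal number as a block, each library left out, and both gates of 66cl4 animals 5 and 6 left out. Scripts were tested on simulated data. CD45+ and CD45- libraries of one tumour and number were taken to share an animal. Their deviations from the group means correlated at 0.0213 to 0.151 (66cl4) and 0.00116 to 0.322 (67NR). The CD45- library that correlated best had the same number only for 66cl4 animals 5 and 6 and 67NR animal 1. Replicate libraries differed by 13.5 to 170 chi-square units per degree of freedom, beyond sampling noise, so none was counted as a duplicate. Library totals were 12960000 to 28080314 counts, and the lowest member count was 37.

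Members and lists were chosen with earlier results of these data known. All members may be named, and values in every library were given for the D and E cyclins, E2f1, Mki67, Top2a, Mcm2, Ccnb1, the highest member of each role set and the 2 largest changes in each direction per comparison, and for Cenpf, chosen after its values were seen. For other pathway lists the 2 called members with the largest change were named, with Rb1, Cdkn2c and, in CD45+ cells, Cdkn1a added after their values were seen.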

Additional observations from a re-analysis of the deposited data

Results flagged for a closer look

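In 172 groups of 5 libraries (41 genes, their sum and the total count in 4 groups), 11 had 1 library far from the other 4, that is, a gap over 0.71 of the group's range, where chance gives about 1 in 20, or 8.6. In 8 of the 11 the library was 66cl4 CD45- animal 7, the high one for Mki67, Ccnb2, Tpx2, Mcm2, Kif20a, Cdc20, Plk1 and Aurka. Its normalised counts were 7063, 1608, 1386, 975, 694, 568, 249 and 184, while the highest of the other 4 animals were 5175, 1322, 1011, 829, 549, 402, 178 and 117. The CD45+ library of the same animal was the high one for Aurkb (396 against 248 to 262). In 67NR CD45- cells animal 4 was high for Nusap1 (824 against 602 to 656), and the library of animal 7 had the low total, 16917109 counts. Genes of one library are not independent of each other, and without 66cl4 CD45- animal 7 the same 4 members were called between the tumours in CD45- cells, as with it.

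The tumour effect differed between the gates, by the interaction test of edgeR, for 13 members. The difference (effect in CD45- minus effect in CD45+ cells, log2) was 2.20 for Tk1, 1.85 for Kif11, 1.77 for Ccnd2, 1.66 for Birc5, 1.17 for Cenpe, 1.16 for Nusap1 and 0.93 for Ccnd1. For Mcm5, Bub1b, Cenpf, Mcm2, Tpx2 and Mcm6 it was 0.81, 0.76, 0.70, 0.66, 0.64 and 0.57.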

How the results depend on the processing

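No called result changed sign. The members called in CD45- cells, between the gates of 67NR tumours and between the gates of 66cl4 tumours stayed within 1.5 times of 4, 2 and 9 under each alternative. The members past adjusted p alone in CD45- cells fell from 18 to 9 with all 20 libraries in the fit, and to 9 without 66cl4 animals 5 and 6. Without these animals CD45+ cells gave 1 called member in place of 0 and 3 past adjusted p alone in place of 7, and the interaction passed for 7 in place of 13, with 5 members below 0 in place of 3.

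With 1 library left out in turn, CD45+ cells gave 0 to 1 called members and 1 to 11 past adjusted p alone, the interaction passed for 6 to 19 members, and 2 to 6 members lay below 0 in it. In CD45- cells 4 members were called each time, and between the gates 8 to 10 (66cl4) and 2 to 3 (67NR). Genes called over the whole table ranged over 4797 to 5070, 1507 to 1880, 6698 to 7020, 6022 to 6461 and, for the interaction, 6571 to 7320.

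With the animal number as a replicate block, members called were 4, 0, 9 and 2, and the interaction passed for 17. The block changed no other count of members called. Past adjusted p alone it gave 16, 5, 31 and 12. In CD45- cells Mcm2, Mcm4, Aurkb and Tpx2 did not pass under it and Ccnd3 and Pcna did, and in CD45+ cells Mcm4, Mcm6, Cenpe and Cenpf did not and Rrm2 and Aurkb did. Between tumours the numbers do not mark a shared animal, and same-numbered libraries correlated at -0.142 to 0.0726. RLE scaling moved the median of all genes by under 0.1 in every comparison. For the summed level of the 41 genes, the log2 ratio of CD45+ to CD45- cells in 67NR tumours was -0.02 on normalised counts, -0.01 on CPM and 0.14 on TPM. The causes were not tested. All members had at least 37 counts in every library.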

Other observations

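Tk1 and Birc5, called higher in 66cl4 CD45- cells, are near neighbours on mouse chromosome 11, with Afmid as the one tested protein-coding gene between them in the order of RefSeq. This was noticed after their values were seen, and the 5 tested protein-coding genes on either side of each of the 4 called members were then read. Beside Tk1 and Birc5, Afmid, Socs3 and Dnah17 were also called higher in 66cl4 CD45- cells (log2 fold change 1.17, 1.71 and 1.98), Syngr2 next to Tk1 was at 0.91, and Tmc8 was called lower (-1.25). Around Kif11 on chromosome 19, 6 of 10 neighbours were called higher and 1 lower, among them Exoc6 (3.70), Cpeb3 (2.03) and Cep55 (1.42), the last a gene of cytokinesis. Around Ccnd2 on chromosome 6, 3 of 10 were called higher, Dyrk4 (5.09), Tead4 (1.87) and Tigar (1.76). Of all genes tested in this comparison 13.2% were called higher and 18.9% lower. Dyrk4 was not tested in CD45+ cells, and of the other neighbours named here Dnah17 alone had an adjusted p under 0.05 there (log2 fold change 1.36). The cause was not tested.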
